A study of Rattus norvegicus with 23 samples.

Results

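Prostaglandin and leukotriene synthesis was examined through 10 genes in the lungs of elderly rats that had inhaled a TiO2 nano-aerosol. They were Ptgs1, Ptgs2, Ptges, Ptgds, Ptgis, Alox5, Alox5ap, Ltc4s, Lta4h and Alox15, taken by gene name as members of the pathway, with earlier results of these data known. All 10 passed the filter on dim probes, out of 23030 genes tested, and they were read by 15 of the 45598 probes on the array (36 of 58717 spots that were not controls). RNA of the accessory lung lobe was hybridised on Agilent single-colour rat arrays, with 1 array per rat and 23 arrays in all. Male F344 rats, 19 months old when exposure began, were exposed through the nose only over 4 weeks, on 5 days of each week and for 6 hours on each of those days. Controls breathed filtered air (control group) and the others breathed TiO2 at 10 mg/m3 (exposed group). Lungs were taken on the last day of exposure (D0, 6 control and 5 exposed rats) or 28 days later (D28, 6 control and 6 exposed rats). All 4 groups thus shared strain, sex, age at onset and the nose-only procedure, but the D28 rats were 28 days older at sampling. The sixth exposed rat of D0 was not analysed here.

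Arachidonic acid, freed from membranes by phospholipases, is the common precursor of these lipid mediators. Cyclooxygenases turn it into prostaglandin H2, from which separate synthases make each prostaglandin and prostacyclin. Lipoxygenases take the other branch, in which 5-lipoxygenase and its activating protein make leukotriene A4 for onward conversion to leukotriene B4 or C4. In the lung these mediators act on vessel and airway tone and on the entry of leukocytes.

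The arrays read transcripts through probes of 60 bases, and the part of a transcript that a probe covers sets what its signal can say. The probes of Alox15, Ptgds and Ptgis are shown because the largest differences below rest on each of them alone. The probes of Ltc4s and Ptgs2 are shown because each covers an end of its coding sequence. Capitals mark the start codon in the first and the stop codon in the second, and the other 3 probes have no capitals. All 5 are written 5′ to 3′ as deposited.
Alox15: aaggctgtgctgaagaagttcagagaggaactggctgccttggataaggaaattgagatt
Ptgds: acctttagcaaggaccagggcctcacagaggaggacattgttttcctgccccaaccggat
Ptgis: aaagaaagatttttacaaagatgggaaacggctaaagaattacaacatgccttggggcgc
Ltc4s: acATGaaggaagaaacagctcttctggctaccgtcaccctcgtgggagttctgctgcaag
Ptgs2: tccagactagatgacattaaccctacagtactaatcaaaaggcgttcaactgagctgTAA

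In the rn4 coordinates of the files, the Alox15 probe lay at chr10:57186202-57186261 on the minus strand and the Ptgis probe at chr3:158360438-158360497, also on the minus strand. The Ptgds probe spanned chr3:3633310-3633779, which is longer than the probe itself. The Ltc4s probe lay at chr10:35788756-35788815 (minus strand) and the Ptgs2 probe at chr13:64432919-64432978 (plus strand). Alox15 was read by 1 spot per array, Ptgis by 1 and Ptgds by 10. Of the 15 probes, the one of Ptgs2 shown above was well above background on 1 of 6 D0 control arrays and on no array of the other groups, while that of Ltc4s reached this on all 23 arrays.

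The quality of the arrays bears on every value below. On each array 69.5% to 77.9% of spots were well above background, and no array repeated another (Pearson r between arrays 0.9582 to 0.9891 across genes, which are not independent replicates). The arrays came from 5 slides, of which slides 1, 3 and 5 held all 4 groups. Slide 2 held only replicate 4 of the D28 controls, the 1 array processed with another version of Agilent Feature Extraction. The defining markers of type II pneumocytes (6 of 6) and of secretory airway cells (4 of 4) were well above background on every array, as the lung label requires. Values are log2 normalised signals, differences are exposed minus control, and a gene was called when its Benjamini-Hochberg adjusted p (limma) was below 0.05 and its fold change (FC) at least 1.5.

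On D0, 1 of the 10 genes was called, against 1.79% of all genes (412 of 23030). This was Alox15, under-expressed in the exposed rats, and it was also the 1 gene of the 10 below an unadjusted limma p of 0.05 (11.9% of all genes). On D28, 0 of the 10 genes were called, against 0.756% of all genes (174 of 23030), with 2 of the 10 below an unadjusted limma p of 0.05 (11% of all genes). The median log2 FC of the 10 genes was -0.15 on D0 and -0.035 on D28, while that of all genes was close to 0 (-0.0007 and -0.0055). No gene of the 10 had exposed and control arrays that were fully separate on either day, which 4.3% of all genes had on D0 and 1.22% on D28.

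**Figure D1:**
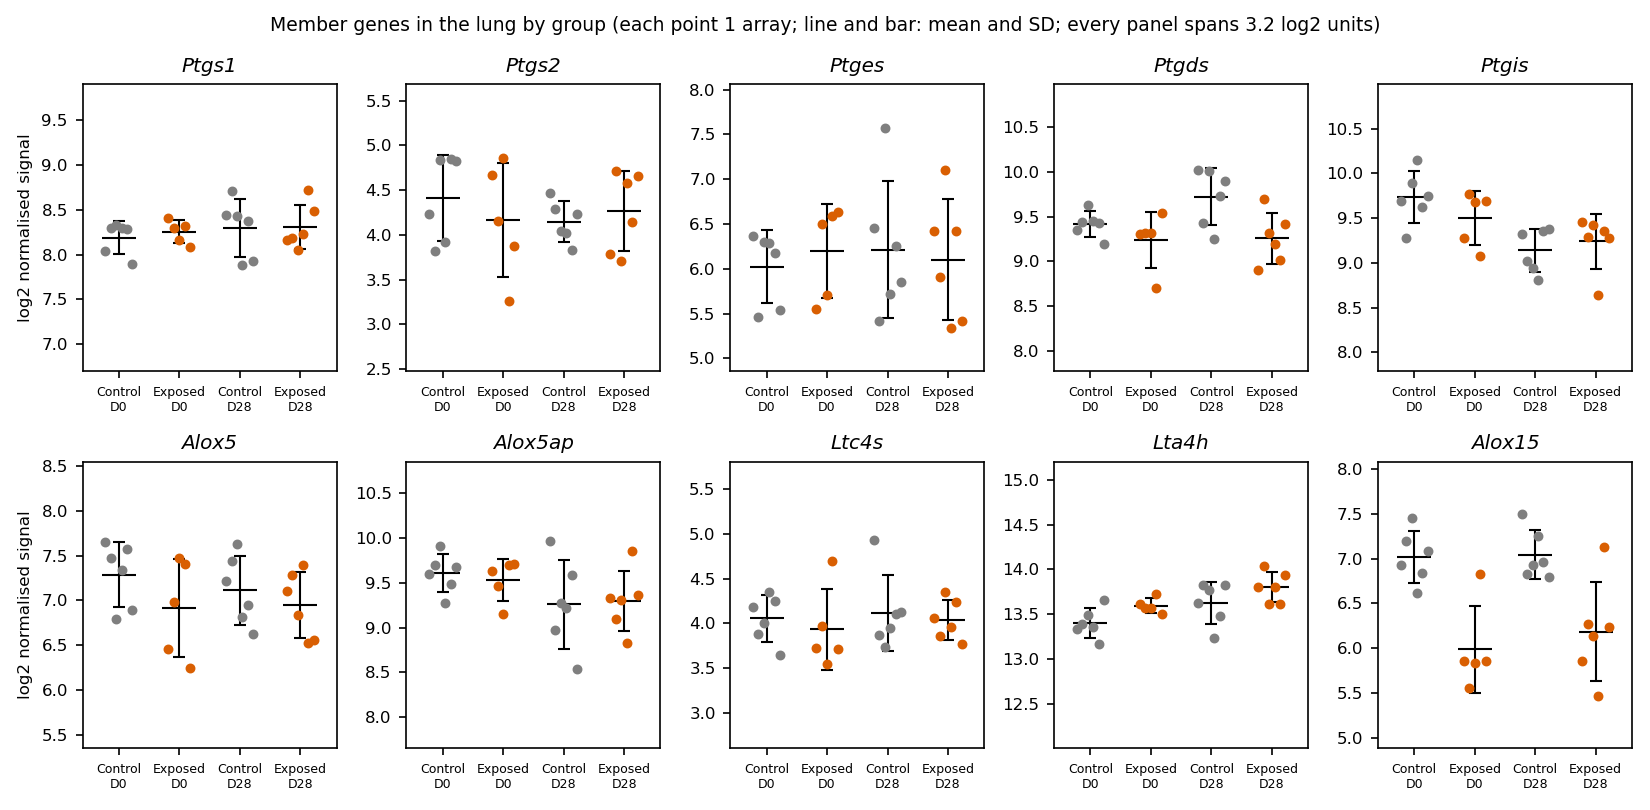
Log2 normalised signal of the 10 genes on each array (points) in the 4 groups, with the group mean and SD (line and bar); the vertical axes have the same span and differ in position, so levels of different genes cannot be compared. Most exposed arrays of Alox15 lie below all control arrays of their day, 4 of 5 on D0 and 5 of 6 on D28, while the groups of the other genes overlap more.

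Alox15 encodes a lipoxygenase that adds oxygen to arachidonic acid away from the leukotriene route and is known from eosinophils, resident macrophages and airway epithelium. On D0 its signal was 6.93, 7.19, 7.45, 6.62, 6.84 and 7.09 in control replicates 1 to 6, with a mean of 7.02 ± 0.29 (SD, n = 6). The exposed rats of D0 had 5.86, 5.55, 5.84, 6.83 and 5.86 in replicates 1 to 5, with a mean of 5.99 ± 0.49 (SD, n = 5). Replicates 1, 2, 3 and 5 were below every control, and replicate 4 fell within the control range. The difference was -1.03 on the log2 scale (SE 0.24, 95% confidence interval -1.54 to -0.53), an under-expression with FC = 2.05 and a limma adjusted p of 0.0213. In the two-sided exact permutation test within the day, p was 0.00433, where the smallest value the design allows is 0.00216. In whole tissue, fewer cells that express a gene and less RNA per cell cannot be told apart.

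On D28 Alox15 stood at 7.50, 6.82, 6.93, 7.26, 6.97 and 6.80 in control replicates 1 to 6 (mean 7.05 ± 0.28, SD, n = 6). In the exposed rats it was 5.86, 6.27, 6.14, 5.46, 7.13 and 6.23 in replicates 1 to 6 (mean 6.18 ± 0.55, SD, n = 6). All exposed arrays but replicate 5 lay below every control. The difference was -0.86 (SE 0.23, 95% confidence interval -1.35 to -0.38), with FC = 1.82 and a limma adjusted p of 0.0727, so Alox15 was not called on D28. The exact permutation test, two-sided and not adjusted, gave p = 0.0108.

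The exposure effects of Alox15 on the 2 days differed by less than the error. Their difference (D28 minus D0) was 0.17 (SE 0.34, 95% confidence interval -0.53 to 0.87). In this limma comparison 0 of the 10 genes were called, against 0.0304% of all genes, and 0 of the 10 were below an unadjusted p of 0.05. Averaged over both days, a comparison chosen after both had been seen, Alox15 was lower by FC = 1.93 (log2 FC -0.95, SE 0.17) with a limma adjusted p of 0.0012. It was the 1 gene of the 10 called in that average, against 1.87% of all genes.

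The call of Alox15 on D0 rested on few arrays. With each of 5 arrays left out in turn (control replicate 3 and exposed replicates 1, 2, 3 and 5, all of D0), its adjusted p rose above the threshold, to between 0.0529 and 0.068, with log2 FC of -1.0 to -0.92. Without exposed replicate 4 of D0, the array that stood apart, the log2 FC on D0 was -1.24 (adjusted p = 0.0041). Alox15 was then called on D28 too (adjusted p = 0.0373). The D28 log2 FC stayed at -0.86 in that fit, in which all groups share a common estimate of the spread. Without exposed replicate 5 of D28, the D28 log2 FC was -1.05 (adjusted p = 0.0181).

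Both exposed arrays that reached the control range of Alox15 had been hybridised on slide 3. The remaining exposed array of that slide, replicate 3 of D28, was at 6.14, below every control. Within slides that held both groups, the exposed minus control difference on D0 was -1.33 on slide 1, -0.055 on slide 3, -1.33 on slide 4 and -1.25 on slide 5. On D28 it was -1.03 on slide 1, -0.60 on slide 3 and -0.53 on slide 5. The sign was thus the same on every slide, and slide 3 was the one with almost no difference on D0, where 1 exposed array stood against 2 controls. With slide as a block the difference was -0.98 on D0 (adjusted p = 0.0205) and -0.78 on D28 (adjusted p = 0.0898).

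**Figure D2:**
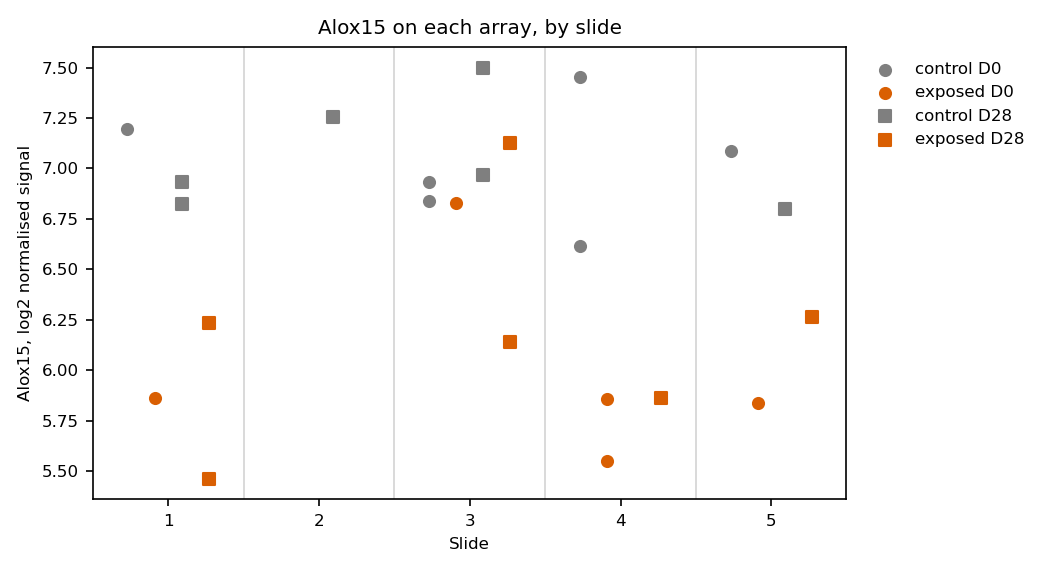
Alox15 log2 normalised signal on each of the 23 arrays, by slide (horizontal axis), with control arrays in grey, exposed arrays in orange, D0 as circles and D28 as squares. The exposed arrays lie below the controls on slides 1, 4 and 5. On slide 3 the exposed value of 7.13 falls among the controls and that of 6.83 lies just below the lowest control, at 6.84. The remaining exposed value of slide 3, 6.14 (D28), lies well below its controls.

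The genes outside the pathway whose signal ran most like that of Alox15 over the 23 arrays were Ephx4 (Pearson r = 0.848), Upk1a (r = 0.812) and Rnase3 (r = 0.81). Because the arrays fall into exposed and control groups, part of each r is the difference between groups, and within groups r was 0.541, 0.465 and 0.509. Because these genes were chosen by an r that includes the group difference, a lower value in exposed rats was partly fixed by the choice. Their differences are thus a description, given with no p. Upk1a, which encodes a uroplakin, had a log2 FC of -0.68 on D0 and of -0.46 on D28. Ephx4, an epoxide hydrolase family member, was lower on D0 by 1.12 and on D28 by 1.0 on the log2 scale. Rnase3, a ribonuclease of eosinophil granules, was lower by 1.1 and 1.0.

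Few single markers of other cell types were called, and their lists are given beside Alox15 by their medians and counts. Over all genes, 50.1% had a negative log2 FC on D0 and 51.1% on D28. Mast cell markers were lower in 10 of 10 genes on D0 with a median log2 FC of -0.33 and 0 called, and the mean of the list overlapped between controls (6.00 to 6.72) and exposed rats (5.77 to 6.61). On D28 that list was lower in 6 of 10 genes with a median of -0.025 and 0 called. Mesothelium markers were lower in 4 of 4 genes on both days, with medians of -0.46 and -0.36, and Wt1 was the 1 of them called (D0, log2 FC -0.62, adjusted p = 0.0464). Their mean ran from 10.03 to 10.28 in D0 controls against 9.56 to 9.92 in D0 exposed rats, with no overlap. On D28 it overlapped (10.00 to 10.39 in controls and 9.66 to 10.02 in exposed rats).

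Of the airway epithelium, ciliated cell markers were lower in 5 of 5 genes on both days (medians -0.29 and -0.27) and secretory cell markers in 3 of 4 (medians -0.32 and -0.39), with 0 called in either list. The list mean of ciliated cells ran from 9.16 to 9.47 in controls and from 8.61 to 9.27 in exposed rats of D0, and that of secretory cells from 14.29 to 14.88 and from 13.97 to 14.68. Both overlapped. Type II pneumocyte markers were higher in 6 of 6 genes on D0 (median 0.20, 0 called). Their list means did not overlap on D0 (13.95 to 14.11 in controls and 14.12 to 14.34 in exposed rats) but did on D28. Over the 23 arrays the Pearson r of the list mean with Alox15 was -0.705 for type II pneumocytes and 0.78 for mesothelium. It was 0.622 for mast cells, 0.603 for endothelium, 0.541 for ciliated cells, 0.484 for platelets, 0.472 for cardiac muscle and 0.444 for smooth muscle. For eosinophils it was 0.248, for macrophages -0.391 and for secretory airway cells 0.329. The other lists had r of 0.336 (B cells), 0.26 (fibroblasts), 0.173 (T cells) and -0.0579 (neutrophils). These values describe arrays that share groups and slides, so part of each r can be the difference between groups. No r within groups was computed for the lists.

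Of 5 eosinophil markers 3 passed the filter, and 3 of 3 were lower on both days. They had a median of -0.38 on D0 and -0.16 on D28, with 0 of 3 called on either day. Their list means overlapped on D0 (4.22 to 5.27 in controls and 3.86 to 4.39 in exposed rats). The 8 endothelial markers were lower in 8 of 8 genes on D0 and 7 of 8 on D28 (medians -0.23 and -0.27, 0 called). Their means did not overlap on D0 (12.02 to 12.21 in controls and 11.74 to 11.93 in exposed rats) but did on D28. On D0 smooth muscle markers were lower in 6 of 6 genes (median -0.27) and cardiac muscle markers in 4 of 4 (median -0.33), with 0 called in either list. The smooth muscle means did not overlap on D0 (8.38 to 8.64 in controls and 8.15 to 8.31 in exposed rats) but did on D28. The cardiac muscle means overlapped on D0 but not on D28 (7.842 to 8.229 in controls and 7.537 to 7.839 in exposed rats). Siglec1 was the 1 of 10 macrophage markers called (D0). Macrophage markers were lower in 1 of 10 genes on D0 and 2 of 10 on D28 (medians 0.35 and 0.16). Their means did not overlap on D0 either, but with exposed rats higher (8.02 to 8.27 in controls and 8.40 to 8.75 in exposed rats). On D28 they overlapped. Neutrophil markers were lower in 6 of 9 genes on D0 and 7 of 9 on D28 (medians -0.061 and -0.17). T cell markers were lower in 2 of 7 and 1 of 7 (medians 0.054 and 0.12). For B cell markers it was 4 of 4 and 2 of 4 (-0.21 and 0.0051). Platelet (-0.20 and -0.025) and fibroblast markers (-0.12 and -0.195) were each lower in 4 of 5 on both days. In these lists 0 were called, and their means overlapped on both days. Some markers of all these lists passed the limma adjusted p but not the fold change limit. On D0 these were Cd68 (higher, adjusted p = 0.00293), Upk3b (lower, 0.032) and Msln (lower, 0.0486). On D28 they were Cd68 (higher, 0.0293), Tek (lower, 0.0246), Tnnt2 (lower, 0.0394) and Actc1 (lower, 0.0489). The part of the listed cell types in the Alox15 result was not tested.

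Cyclooxygenases make the prostaglandin precursor, Ptgs1 in most tissues without a stimulus and Ptgs2 mainly on induction. Ptgs1 ranged from 7.89 to 8.33 (median 8.29) in D0 controls and from 8.08 to 8.41 (median 8.30) in D0 exposed rats. On D28 it ranged from 7.88 to 8.71 (median 8.40) in controls and from 8.06 to 8.72 (median 8.21) in exposed rats. The groups overlapped on both days. Its log2 FC was 0.066 (95% confidence interval -0.23 to 0.37) on D0 and 0.011 (-0.28 to 0.30) on D28, intervals that lie within a 1.5-fold change. The sign of these small values was not stable: it was negative on D0 with the brightest probe alone (-0.098), and on D28 with 75th percentile scaling (-0.0033).

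Ptgs2 ranged from 3.82 to 4.84 (median 4.53) in D0 controls and from 3.26 to 4.86 (median 4.15) in D0 exposed rats. On D28 the ranges were 3.84 to 4.47 (median 4.14) in controls and 3.70 to 4.72 (median 4.36) in exposed rats, with 3 of 6 exposed arrays above all controls and 2 of 6 below. Its log2 FC was -0.25 (95% confidence interval -0.81 to 0.31) on D0 and 0.12 (-0.42 to 0.65) on D28. Those intervals still allow a change of 1.75-fold downwards on D0 and of 1.57-fold upwards on D28. Only 1 of the 3 Ptgs2 probes was well above background on every array, and by that probe alone the log2 FC was -0.34 (SE 0.19) on D0 and 0.15 (SE 0.18) on D28, neither called.

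**Figure D3:**
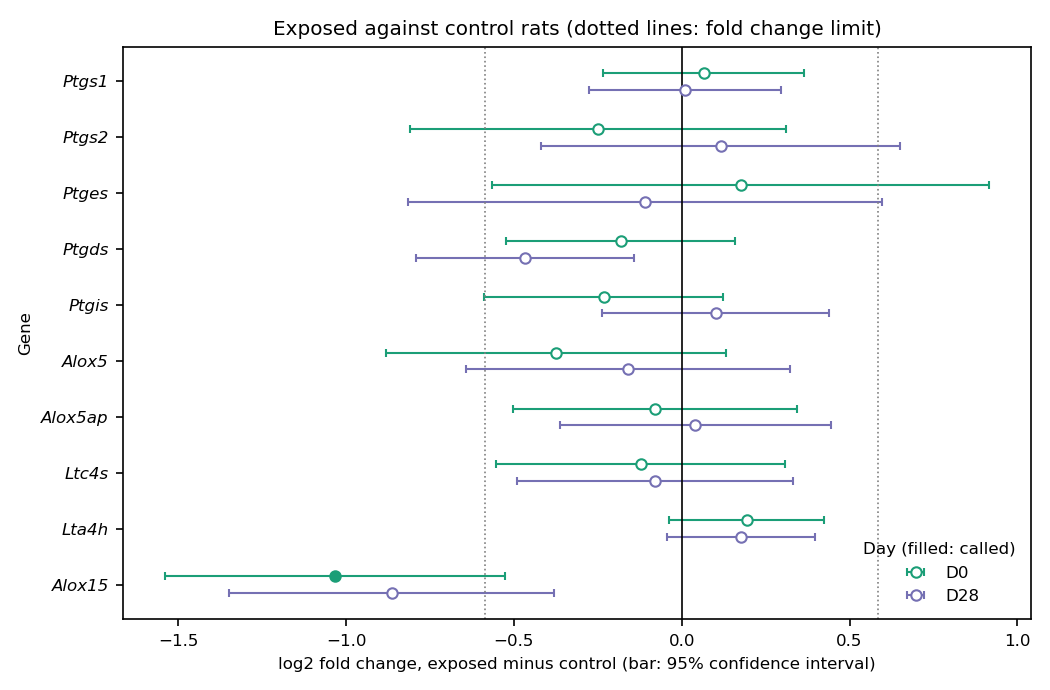
Log2 fold change (exposed minus control, horizontal axis) of the 10 genes on D0 (green) and D28 (purple) with 95% confidence intervals; filled points were called and dotted lines mark the fold change limit of 1.5. Alox15 has the lowest value on both days, at -1.03 and -0.86, and the interval of Ptgds on D28 also lies below 0.

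The terminal synthases shape which prostaglandin is made. Ptgds, the lipocalin-type prostaglandin D synthase, stood at 10.02, 9.43, 10.01, 9.25, 9.73 and 9.90 in D28 control replicates 1 to 6 (mean 9.72 ± 0.32, SD, n = 6). The exposed rats of D28 had 8.91, 9.70, 9.31, 9.19, 9.01 and 9.41 (mean 9.26 ± 0.29, SD, n = 6). Replicates 1, 4 and 5 of the exposed rats were below every control, and the other 3 overlapped with the controls. The difference was -0.47 (SE 0.16, 95% confidence interval -0.79 to -0.14), with a limma adjusted p of 0.182 and p = 0.0281 in the exact permutation test, so it was not called. It was negative on all 3 slides that held both groups (-0.42, -0.71 and -0.20).

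On D0 Ptgds ranged from 9.20 to 9.63 (median 9.44) in controls and from 8.71 to 9.54 (median 9.32) in exposed rats. The groups overlapped, with 1 of 5 exposed arrays, replicate 4, below all controls. The log2 FC was -0.18 (SE 0.16, adjusted p = 0.837), and without replicate 4 it was -0.050.

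Ptgis, the prostacyclin synthase of vessels, ranged from 9.28 to 10.15 (median 9.72) in D0 controls and from 9.08 to 9.77 (median 9.68) in D0 exposed rats. On D28 it ranged from 8.81 to 9.38 (median 9.17) in controls and from 8.64 to 9.46 (median 9.32) in exposed rats. The exposed and control rats overlapped on both days, with log2 FC of -0.23 (SE 0.17) and 0.10 (SE 0.16). The latter was -0.032 with slide as a block. Ptgis in control rats of D28 was lower than in those of D0 by 0.59 on the log2 scale (SE 0.16, FC = 1.51, limma adjusted p = 0.0991), a difference that was not called.

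Between the control groups 0 of the 10 genes were called, against 0.608% of all genes, and besides Ptgis only Lta4h was below an unadjusted limma p of 0.05 (log2 difference 0.23, D28 above D0, adjusted p = 0.363). For all genes, 13.3% were below an unadjusted p of 0.05 there.

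Ptges, the inducible microsomal prostaglandin E synthase, had the widest confidence intervals of the 10 genes. It ranged from 5.46 to 6.36 (median 6.24) in D0 controls and from 5.55 to 6.63 (median 6.503) in D0 exposed rats, with 3 of 5 exposed arrays above all controls. On D28 it ranged from 5.42 to 7.58 (median 6.05) in controls and from 5.34 to 7.11 (median 6.17) in exposed rats. The SD within groups was 0.41 to 0.77. The log2 FC was 0.18 (95% confidence interval -0.57 to 0.92) on D0 and -0.11 (-0.82 to 0.60) on D28, which still allows a change of 1.89-fold upwards on D0.

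Leukotriene synthesis starts with Alox5, the 5-lipoxygenase, and Alox5ap, the protein that presents arachidonic acid to it. Alox5 ranged from 6.80 to 7.65 (median 7.40) in D0 controls and from 6.25 to 7.47 (median 6.98) in D0 exposed rats, and from 6.63 to 7.63 (median 7.08) and 6.52 to 7.40 (median 6.97) on D28. In each case 2 exposed arrays lay below all controls and the rest overlapped. The log2 FC was -0.38 (SE 0.24, adjusted p = 0.658) on D0 and -0.16 (SE 0.23) on D28. One of its 2 probes was well above background on 1 array in all, an exposed array of D0. By the other probe, well above background on all 23 arrays, the log2 FC was -0.21 (SE 0.11, adjusted p = 0.615) on D0 and -0.0052 (SE 0.11) on D28.

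Alox5ap ranged from 9.28 to 9.91 (median 9.64) in controls and from 9.16 to 9.71 (median 9.63) in exposed rats of D0. On D28 it ranged from 8.53 to 9.97 (median 9.25) in controls and from 8.83 to 9.86 (median 9.32) in exposed rats. Controls and exposed rats covered nearly the same range on each day. The log2 FC was -0.078 (95% confidence interval -0.50 to 0.34) and 0.040 (-0.36 to 0.44), both within a 1.5-fold change.

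Leukotriene A4 goes to leukotriene C4 through Ltc4s or to leukotriene B4 through Lta4h. Ltc4s ranged from 3.65 to 4.35 (median 4.09) in controls and from 3.54 to 4.70 (median 3.73) in exposed rats of D0, and from 3.74 to 4.93 (median 4.03) and 3.77 to 4.36 (median 4.01) on D28. The groups overlapped on both days, with log2 FC of -0.12 (95% confidence interval -0.55 to 0.31) and -0.080 (-0.49 to 0.33). One of its 2 probes was well above background on 0 of 23 arrays. By the probe at the start codon shown above, the log2 FC was -0.20 (SE 0.27) on D0 and 0.051 (SE 0.25) on D28, the latter of opposite sign to the mean of both probes.

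Lta4h, the leukotriene A4 hydrolase, stood at 13.34, 13.39, 13.49, 13.36, 13.17 and 13.66 in D0 control replicates 1 to 6 (mean 13.40 ± 0.16, SD, n = 6). The exposed rats of D0 had 13.62, 13.57, 13.56, 13.72 and 13.50 (mean 13.59 ± 0.084, SD, n = 5). All exposed arrays were above 5 of the 6 controls, and 1 was above all of them. The difference of 0.19 (SE 0.11) had a limma adjusted p of 0.574 and an exact permutation p of 0.039. On D28 the difference was 0.18 (SE 0.11, adjusted p = 0.608) with ranges of 13.24 to 13.82 and 13.61 to 14.04. The intervals, -0.037 to 0.42 and -0.044 to 0.40, lay within a 1.5-fold change.

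The 10 genes did not run together across the 23 arrays. Over their 45 pairs, Pearson r lay between -0.486 (Ptgs2 with Ptges) and 0.388 (Alox5ap with Alox15), as a description of arrays that share slides and groups. Probes of 1 gene also ran together weakly. Across the 6 pairs of probes that read the same gene, r was 0.217 to 0.367. Only the pair of Ptgs1 (r = 0.23) had both probes well above background on all 23 arrays. Each other pair held a probe that was near background on some or all arrays, which limits what its r can say.

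Around the 10 genes, 51 other genes of the pathway were measured, and 0 of the 51 were called on either day. On D0, 4 were higher and 6 lower at an unadjusted limma p below 0.05 (11.9% of all genes were below it), and on D28 3 were higher and 3 lower. Their median log2 FC was -0.044 on D0 and -0.023 on D28.

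Among the phospholipases that release arachidonic acid, Pla2g1b had a log2 FC of 0.41 (SE 0.14, adjusted p = 0.145) on D0 and 0.30 (SE 0.13, adjusted p = 0.387) on D28. It had the largest value of that role on D28. Pla2g5 had the largest on D0, but it was well above background on 1 of 6 control arrays and on 0 of 5 exposed arrays, so no value is given for it. Among the other prostanoid synthases the largest values were those of Akr1c14 on D0 (-0.37, SE 0.15, adjusted p = 0.246) and of Ptges3, a cochaperone also named cytosolic prostaglandin E synthase, on D28 (-0.19, SE 0.088, adjusted p = 0.425). Ptgr1, a reductase that inactivates prostaglandins and leukotriene B4, had the largest value of its role on both days, -0.34 (SE 0.11, adjusted p = 0.132) on D0 and -0.22 (SE 0.11) on D28.

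On the leukotriene side, Ggt1, a gamma-glutamyltransferase that can turn leukotriene C4 into D4, had a log2 FC of 0.40 (SE 0.15, adjusted p = 0.198) on D0. Mgst2, a microsomal glutathione transferase with leukotriene C4 synthase activity, had 0.28 (SE 0.10, adjusted p = 0.242) on D28. Among receptors, Cysltr2, which binds cysteinyl leukotrienes, had -0.76 (SE 0.33, adjusted p = 0.324) on D0, where it was well above background on 10 of 11 arrays. Fpr2, which binds lipoxin A4, had -0.38 (SE 0.49) on D28, well above background on 11 of 12 arrays. Of the prostanoid receptors the largest values were those of Ptgdr, a prostaglandin D2 receptor, which was well above background on 2 of 23 arrays and is given no value. Of those well above background on every array, Ptger2 had the largest values. They were 0.43 (SE 0.18, adjusted p = 0.292) on D0 and 0.51 (SE 0.17, adjusted p = 0.178) on D28, neither called. Among the other lipoxygenases Alox12e had the largest values, -0.49 (SE 0.36) on D0 and -0.54 (SE 0.34) on D28, well above background on 7 of 11 arrays of D0 and 7 of 12 of D28.

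**Figure D4:**
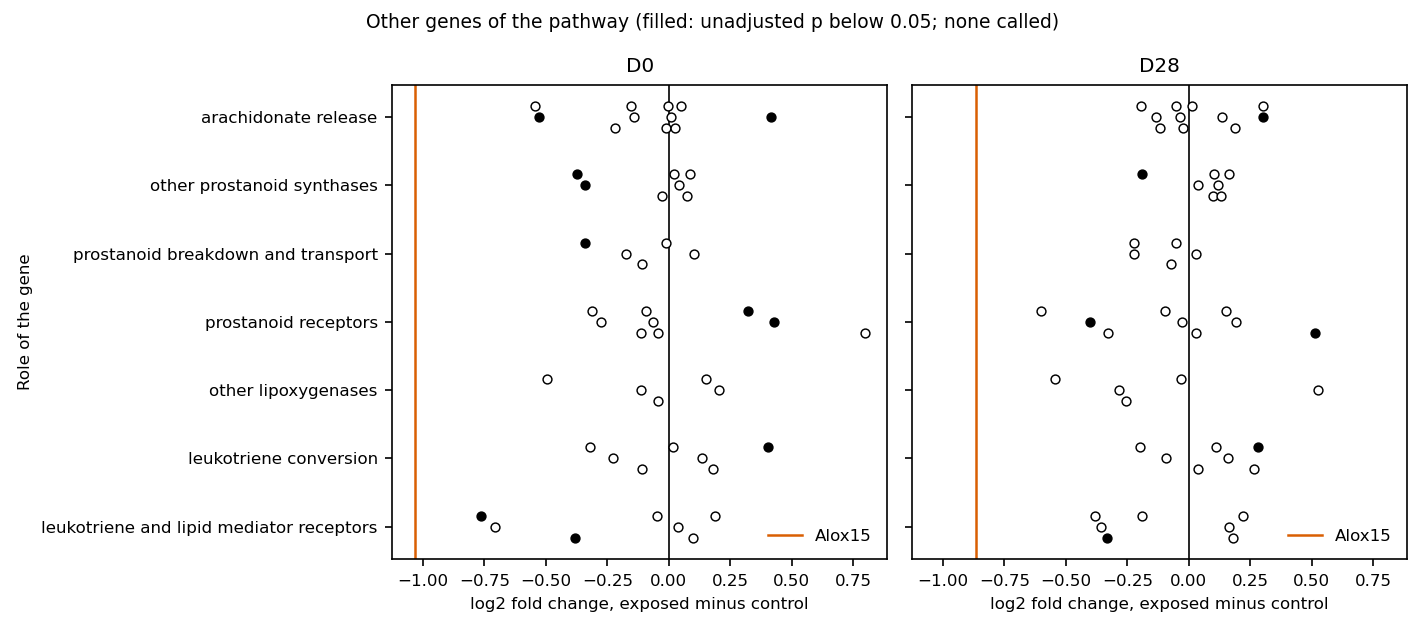
Log2 fold change (exposed minus control, horizontal axis) of the 51 other genes of the pathway by role (rows), on D0 and on D28; filled points had an unadjusted p below 0.05 and the orange line marks Alox15. No gene reaches the value of Alox15 (-1.03 on D0 and -0.86 on D28), and points of every role lie on both sides of 0 on D0.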

How the data were processed

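The deposited scanner files give the processed signal of each spot, an intensity on a linear scale that per the file headers came from Agilent Feature Extraction (version 11.0.1.1 for 22 of them, version 12.0.1.1 for the other), with background already subtracted. The authors also deposited a table of all arrays, quantile normalised intensity, used as an alternative. Replicate numbers, groups and days came from the titles; the source names of the exposed D28 arrays read day 0, against their titles and descriptions. Gene names came from the most recently annotated file. Control spots were left out and outlier spots (0.794%) set to missing. A probe stayed in if its signal passed the 95th percentile of the 308 negative controls on 5 arrays or more, as 40418 did. Signals were log2 transformed, quantile normalised and averaged to genes (23030, those without a symbol or with a missing value left out). Such averages mix bright and dim probes. Quantile normalisation removes any shift common to all genes.

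One limma 3.58.1 model (R 4.3.3) with a mean per group was fitted to the 23 arrays (19 residual degrees of freedom), with eBayes and Benjamini-Hochberg adjustment over all genes. It was tested on simulated data. Members were tested by two-sided exact permutation too. The genes, the 51 other pathway genes and the marker lists were chosen with earlier results of these data known. Named genes were the 10 members, from the pathway those called and the largest change per role and day, and the 3 genes with the highest Pearson r to each called member. Ptger2 was added because the prostanoid receptor with the largest change was near background. Alternatives covered scaling, background, filter, probe choice, variance model, slide, replicate number and each array left out. Precision is limited by the number of arrays. The replicates are separate rats per the labels.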

Additional observations from a re-analysis of the deposited data

Results flagged for a closer look

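In 4 of the 40 sets of arrays checked (10 genes in 4 groups) 1 array lay far from the others of its group, past Dixon's 95% critical value, where chance gives about 2 of 40. For Alox15 it was exposed replicate 4 of D0, at 6.83 with the next array at 5.86, and for Ptgds the same array, at 8.71 with the next at 9.30. That array had the lowest share of spots well above background, 69.5%, and the part of this in its values was not tested. Ptgis was at 8.64 in exposed replicate 4 of D28, with the next array at 9.28. Ltc4s was at 4.93 in control replicate 1 of D28, with the next array at 4.12. Without those arrays the log2 FC on the day concerned was -1.24 for Alox15, -0.050 for Ptgds, 0.22 for Ptgis and 0.083 for Ltc4s, of which that of Ltc4s had the opposite sign to the value with all arrays. Of these only Alox15 was called.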

How the results depend on the processing

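Alox15 was lower in exposed rats in every setting run on both days, with log2 FC from -1.18 to -0.59 on D0 and from -0.87 to -0.51 on D28 when all arrays were kept. The deposited table gave -0.73 and -0.63, and normexp background correction gave -0.59 and -0.51, so that 0 of the 10 genes were then called in the mean of both days. On D28 1 gene, Alox15, was called with a stricter filter, which kept probes seen clearly in all rats of at least 1 group (adjusted p = 0.0412), and 1 gene, again Alox15, with an unadjusted p. Between control groups 1 gene, Ptgis, was called with array quality weights and 1, again Ptgis, with an unadjusted p.

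The replicate numbers were not taken as pairs in the main fit. Deviations of same-numbered arrays correlated between -0.225 and 0.455 over 11 pairs, of which 3 were above 0.1. Those 3 were pairs of D28 (0.262, 0.359 and 0.455), while on D0 all pairs were negative. Whether the numbers pair the rats cannot be told from these values. With replicate number as a block, 0 of the 10 genes were called on D0 (Alox15 -1.04, adjusted p = 0.0633). It changed no other count of the 10 genes.

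With each array left out, the number called ranged from 0 to 1 on D0, from 0 to 1 on D28 and from 0 to 1 between control groups (Ptgis, without exposed replicate 4 of D28). Signs reversed for genes near 0: Ptgs1 on D0 (-0.019 with normexp, -0.098 with the brightest probe) and on D28 (-0.0033 with 75th percentile scaling, -0.075 with array weights, -0.067 with slide as a block), Ltc4s on D0 (0.0034 with uncorrected median signal) and on D28 (0.046 with the stricter filter, 0.051 with the brightest probe), and Ptgis on D28 (-0.032 with slide as a block). With arrays left out, the D28 ranges were -0.072 to 0.094 for Ptgs1, -0.11 to 0.18 for Alox5ap, -0.31 to 0.16 for Ptges and -0.16 to 0.083 for Ltc4s, and Alox5ap ranged from -0.14 to 0.016 on D0. The cause was not tested. On D0 the intervals of Alox15, Ptges, Ptgs2, Alox5 and Ptgis reach past a 1.5-fold change. Differences within slides have no test and gave no count.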
